A study of Mus musculus with 4 samples.

Results

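The 7 genes described here, Hmgcs1, Fdps, Fdft1, Sqle, Lss, Cyp51 and Insig1, belong to the cholesterol synthesis pathway and its feedback control. They were chosen by name, with earlier results of these data known. The choice was made from the 32285 genes listed in each of 4 single-cell RNA sequencing libraries of adult mouse epidermis. All 7 were found in all 4 libraries. Each library was 1 group. In the control groups the mice were DNp63fl/fl, with both alleles of the ΔNp63 isoform of Trp63 flanked by loxP sites. In the groups labelled experimental, called ablated here, the mice were DNp63fl/fl;K14-CreT2 and also carried a tamoxifen-dependent Cre recombinase driven by the keratin 14 promoter. This promoter is active in basal keratinocytes and in the outer cells of the hair follicle and sebaceous gland. Skin cells that neither use it nor descend from such cells are thus not targets of the Cre. All mice, controls included, received tamoxifen by oral gavage at 200 mg/kg daily for 5 days, and cells of the back skin were taken 1 day or 1 week later. Males and females aged 2 to 17 months were used. The number of mice pooled in a library, and the digestion used for each (0.25% trypsin, overnight at 4 °C or at 37 °C), are not tied to a library by the labels. Transcripts were tagged at the 3′ end in the 1-day libraries (10x Genomics, version 3.1) and at the 5′ end in the 1-week libraries (version 1.1), so comparisons were made only between libraries of the same time.

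Cholesterol is built from acetyl-CoA. HMG-CoA synthase (Hmgcs1) acts at the start of the mevalonate pathway, farnesyl diphosphate synthase (Fdps) makes the branch point intermediate, and squalene synthase (Fdft1) takes the first step that commits it to sterols. Squalene epoxidase (Sqle), lanosterol synthase (Lss) and lanosterol demethylase (Cyp51) follow. Transcription of these genes is driven by SREBP2, the product of Srebf2, which is carried by SCAP from the endoplasmic reticulum to the Golgi when sterols are low. Insig1 holds SCAP back when sterols are high and is itself a target of SREBP2. In the epidermis, keratinocytes of the upper layers make cholesterol for the lamellar lipids of the permeability barrier, and sebocytes make squalene and other lipids of sebum.

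A group was 1 library, so no difference between groups has a replicate check and no test between groups was possible. Each level is given as CPM, UMI counts of a gene summed over a class in a library and scaled to a fixed total of all gene UMIs of those cells, where a UMI marks 1 captured RNA molecule. Intervals in parentheses are exact 95% intervals for counting error only. The libraries held 18413 to 33552 barcodes and 68191870 to 179736563 gene UMIs, with medians of 1298 to 4209.5 UMIs per barcode. At 1 day 299 barcodes were listed by both libraries and at 1 week 661, and without them the median log2 ratio of the 7 genes in keratinocytes was 0.55 at 1 day and 0.16 at 1 week, against 0.55 and 0.17 with them. Summed over keratinocytes, Trp63 was at 404 CPM in control cells and 123 CPM in ablated cells at 1 day, and at 441 and 140.2 CPM at 1 week. Trp63 reads from the ends of the transcript may lie outside the deleted part, so these levels do not show the extent of deletion. Cells were clustered without the genes of any list used below, and keratinocyte clusters were named basal-like, spinous-like, granular-like, bulge and outer root sheath-like, upper follicle-like or sebaceous-like from fixed markers. The makeup of the libraries differed widely. There were 5084 basal-like cells in the 1-day control library and 471 in the ablated, 2372 and 27 at 1 week, while granular-like cells went from 144 (control) to 438 (ablated) at 1 day and from 30 to 1014 at 1 week. At 1 week 57.1% of control and 73.5% of ablated cells lay in clusters of low UMI count and entered no class. Over all keratinocytes, the 9 granular markers summed to 1242 CPM in control cells and 5851 CPM in ablated cells at 1 day, and to 1215 and 9446 CPM at 1 week. The 9 basal markers summed to 11386 and 5794 CPM at 1 day and to 21450.1 and 16062 CPM at 1 week.

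On mouse build GRCm38, GENCODE M21 places Hmgcs1 at chr13:119690379-119708260 and Lss at chr10:76531588-76557138, both on the plus strand. Insig1 lies at chr5:28071363-28078662 and Sqle at chr15:59315077-59331192, also on the plus strand. Cyp51 (chr5:4081145-4104746), Fdft1 (chr14:63145150-63179578) and Fdps (chr3:89093588-89101959) lie on the minus strand. Gene identifiers in the files matched this annotation for all 7. Promoters, from 250 bases before to 50 bases after a transcript start, were taken from RefSeq on build GRCm38.p6, which gave one for 4 of the 7 genes: Hmgcs1, Lss, Cyp51 and Insig1. Each was searched on both strands for 2 forms of the sterol regulatory element bound by SREBP proteins (TCACNCCAC and CACCCCAC, which overlap), for the NF-Y box (CCAAT) and for the GC box of Sp1 family factors (GGGCGG). Hmgcs1 is shown because it was the only 1 of these 4 with either form of the sterol regulatory element. Insig1, picked after its values were seen, is shown because it had the largest difference between the 1-day libraries. The promoters run 5′ to 3′ along the gene at chr13:119690101-119690400 and chr5:28071162-28071461, both on the plus strand, with matches on either strand in capitals. A match on the other strand reads as the reverse complement of the motif, ATTGG for the NF-Y box and CCGCCC for the GC box.
Hmgcs1: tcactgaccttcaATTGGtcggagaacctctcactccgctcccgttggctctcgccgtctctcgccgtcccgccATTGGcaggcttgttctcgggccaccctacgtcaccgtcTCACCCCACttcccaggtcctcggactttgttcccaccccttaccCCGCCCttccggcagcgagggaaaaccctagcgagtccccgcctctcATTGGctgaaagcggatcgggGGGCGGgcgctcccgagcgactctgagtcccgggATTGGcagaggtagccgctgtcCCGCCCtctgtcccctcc
Insig1: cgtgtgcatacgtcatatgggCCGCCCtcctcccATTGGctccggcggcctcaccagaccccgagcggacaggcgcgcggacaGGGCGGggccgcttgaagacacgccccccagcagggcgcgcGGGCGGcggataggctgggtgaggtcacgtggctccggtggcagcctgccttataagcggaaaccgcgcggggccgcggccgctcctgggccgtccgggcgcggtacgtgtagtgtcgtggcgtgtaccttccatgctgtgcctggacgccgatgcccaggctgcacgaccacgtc
In Hmgcs1 the sterol regulatory element began 137 bases before the transcript start, amid 4 NF-Y boxes and 3 GC boxes. Among all 32851 promoters of the table, TCACNCCAC was found in 1.24%, CACCCCAC in 2.87%, CCAAT in 37.4% and GGGCGG in 35.7%. All 4 promoters of the genes described here held CCAAT and GGGCGG. Of 19 promoters of the wider sterol synthesis list, which includes those of Hmgcs1, Lss and Cyp51, 15 held CCAAT (78.9%) and 16 held GGGCGG (84.2%). These matches are letters in a window and were not tested for binding.

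Among the 6 named keratinocyte classes of the 1-day control library, the 7 genes, as a sum, were lowest in basal-like cells and highest in suprabasal and sebaceous-like cells. The 2723 keratinocytes without a class are not part of this order. Their summed level was 333 (95% interval 325 to 340.1) CPM in basal-like, 572 CPM in upper follicle-like and 619.9 CPM in bulge and outer root sheath-like cells. It was 1394 CPM in spinous-like, 1656 CPM in granular-like and 1874 (95% interval 1825 to 1923) CPM in sebaceous-like cells. No 2 neighbours in this order had overlapping intervals, which cover counting error only. Subsets of cells of this library by hashtag, explained below, overlapped for upper follicle-like (448 to 646 CPM) and bulge cells (458 to 638 CPM). They also overlapped from one to the next for spinous-like (1429 to 1571 CPM), granular-like (1457 to 1791 CPM) and sebaceous-like cells (1581 to 2322 CPM). Spinous-like cells were 4.19-fold (95% interval 4.09 to 4.29) above basal-like cells and sebaceous-like cells 5.63-fold (95% interval 5.44 to 5.83). In the 1-week control library, made with the other kit, the summed level was 584 CPM in bulge and outer root sheath-like, 895 CPM in basal-like and 1009.5 CPM in upper follicle-like cells. Spinous-like cells were at 2610.2 CPM, the 30 granular-like cells at 2778 CPM and the 33 sebaceous-like cells at 5711 CPM. The sebaceous-like name rests on 7 markers that summed to 3165 CPM in that class and 123 CPM over all keratinocytes at 1 day, and to 10689.7 and 153 CPM at 1 week.

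**Figure D1:**
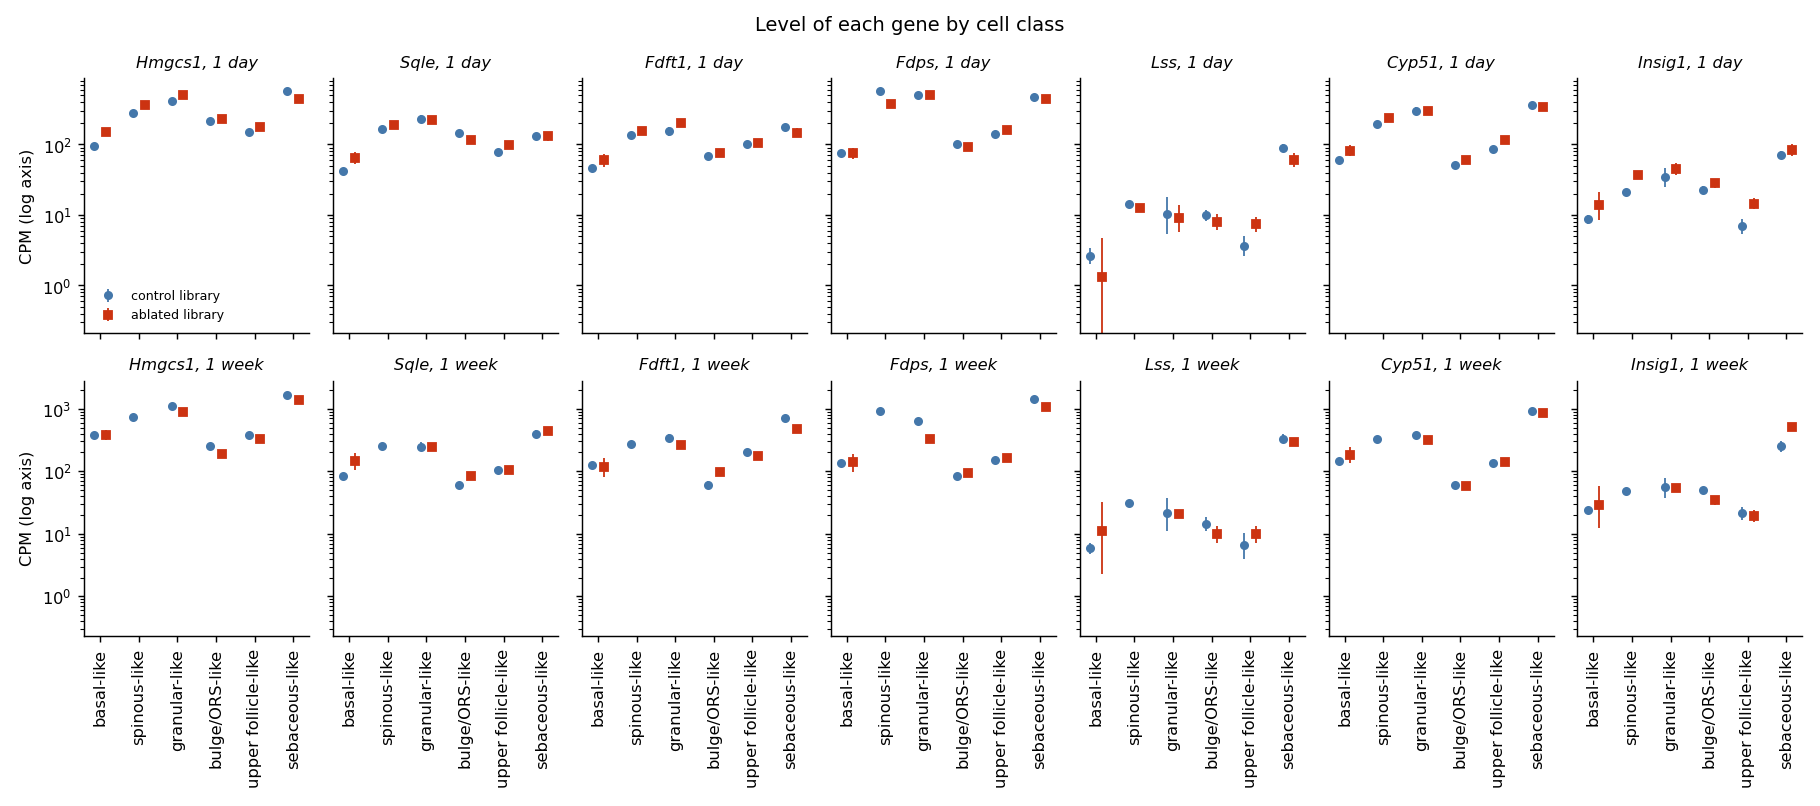
Level of each of the 7 genes (CPM, log axis) in 6 keratinocyte classes at 1 day and 1 week, with control libraries as blue circles, ablated libraries as red squares and exact 95% counting intervals as bars. Lss stands highest in sebaceous-like cells in all 4 libraries, and in the 1-day control library every gene but Cyp51 and Insig1 has its lowest point in basal-like cells.

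Hmgcs1, the first enzyme of the 7, followed the order of the epidermal layers by class, though not for each spinous-like cluster, as given below. In the 1-day control library it was at 96.5 (95% interval 92.6 to 101) CPM in basal-like, 151 in upper follicle-like, 219 in bulge and outer root sheath-like, 282 in spinous-like, 413 in granular-like and 565 (95% interval 538 to 592) CPM in sebaceous-like cells. All neighbours in this order were separate by their counting intervals. The hashtag subsets overlapped for basal-like (81.8 to 121 CPM) and upper follicle-like cells (119 to 167 CPM). Upper follicle-like subsets also overlapped those of bulge cells (147 to 202 CPM). In the 1-week control library Hmgcs1 ran from 256 CPM in bulge and outer root sheath-like cells through 375 in basal-like, 382 in upper follicle-like, 749 in spinous-like and 1114 in granular-like to 1669 CPM in sebaceous-like cells. The basal-like and upper follicle-like intervals overlapped there.

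Fdps had the steepest step between basal-like and spinous-like cells of the 7 genes in the 1-day control library. It was at 76.0 (95% interval 72.5 to 79.7) CPM in basal-like, 102 in bulge and outer root sheath-like, 142 in upper follicle-like, 478 in sebaceous-like, 508 in granular-like and 581 (95% interval 574 to 589) CPM in spinous-like cells. Spinous-like cells were 7.65-fold (95% interval 7.28 to 8.03) above basal-like cells, and the granular-like and sebaceous-like intervals overlapped. At 1 week the control levels of Fdps were 84.4 CPM in bulge and outer root sheath-like, 134 in basal-like, 154 in upper follicle-like, 626 in granular-like, 927 in spinous-like and 1443 CPM in sebaceous-like cells. Fdps was thus higher in spinous-like than in granular-like cells in both control libraries.

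Fdft1, the committed step, and Sqle, the epoxidase, spanned a narrower range than Fdps at 1 day. Fdft1 in the 1-day control library was at 46.7 (95% interval 43.9 to 49.5) CPM in basal-like, 67.7 in bulge and outer root sheath-like, 101 in upper follicle-like, 134 in spinous-like, 155 in granular-like and 176 (95% interval 161 to 192) CPM in sebaceous-like cells, and the intervals of spinous-like and granular-like cells, and of granular-like and sebaceous-like cells, overlapped. In the 1-week control library Fdft1 went from 60.9 CPM in bulge and outer root sheath-like to 273 in spinous-like, 341 in granular-like and 717 CPM in sebaceous-like cells. Sqle was at 42.1 (95% interval 39.5 to 44.8) CPM in basal-like, 79.2 in upper follicle-like, 133 in sebaceous-like, 147 in bulge and outer root sheath-like, 165 in spinous-like and 232 (95% interval 206 to 262) CPM in granular-like cells at 1 day. It was the only 1 of the 7 genes for which granular-like cells ranked first in that library, and its sebaceous-like and bulge intervals overlapped. At 1 week Sqle was at 59.99 CPM in bulge and outer root sheath-like, 257 in spinous-like and 399 CPM in sebaceous-like control cells.

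Lss, the cyclase that closes the sterol rings, was the most sebaceous of the 7. In the 1-day control library it was at 2.63 (95% interval 2.01 to 3.38) CPM in basal-like, 3.67 in upper follicle-like, 9.85 in bulge and outer root sheath-like, 10.3 in granular-like, 14.3 in spinous-like and 88.9 (95% interval 78.5 to 100.2) CPM in sebaceous-like cells. Sebaceous-like cells were 33.7-fold (95% interval 25.5 to 45.3) above basal-like cells. In the 1-week control library Lss was at 5.88 CPM in basal-like, 31.5 in spinous-like and 331 CPM in sebaceous-like cells, 56.3-fold (95% interval 43.3 to 73.5) above basal-like cells. Spinous-like, granular-like and bulge intervals of Lss overlapped from one to the next in both control libraries.

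Cyp51, which removes a methyl group from lanosterol, was also highest in sebaceous-like cells. Its 1-day control levels were 51.6 (95% interval 47.5 to 56.0) CPM in bulge and outer root sheath-like, 59.9 in basal-like, 87.3 in upper follicle-like, 196 in spinous-like, 303 in granular-like and 362 (95% interval 341 to 384) CPM in sebaceous-like cells, with no overlap between neighbours. Those intervals cover counting error only. The hashtag subsets of Cyp51 overlapped from one to the next for bulge (30.3 to 58.4 CPM), basal-like (38.8 to 75.2 CPM) and upper follicle-like cells (58.3 to 99.8 CPM). Granular-like and sebaceous-like subsets overlapped as well (258 to 372 and 243 to 468 CPM). Bulge and outer root sheath-like cells ranked lowest for Cyp51 in the 1-week control library too, at 59.3 CPM against 903 CPM in sebaceous-like cells. Insig1, the feedback regulator, was at 6.95 (95% interval 5.44 to 8.75) CPM in upper follicle-like, 8.72 in basal-like, 21.5 in spinous-like, 22.5 in bulge and outer root sheath-like, 34.4 in granular-like and 71.3 (95% interval 62.1 to 81.5) CPM in sebaceous-like cells. Spinous-like, bulge and granular-like levels of Insig1 overlapped from one to the next, as did basal-like and upper follicle-like levels, so its levels formed 3 steps with sebaceous-like cells alone at the top.

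The spinous-like class at 1 day was not uniform. A cluster led by Mt4 and Krt1, with 3802 control and 491 ablated cells, held the 7 genes at a summed 712 CPM in the control library. A cluster led by Ivl, which encodes involucrin of the cornified envelope, held them at 2383 CPM in 1441 control cells, above the granular-like and sebaceous-like classes. Fdps was at 214 CPM in the first and 1115 CPM in the second, Hmgcs1 at 163 and 454 CPM, and Cyp51 at 117 and 310.2 CPM. Hmgcs1 in the Ivl-led cluster thus stood above its 413 CPM in the granular-like class. Spinous-like levels thus depend on the share of these clusters, which was 3802 to 1441 cells in the control library and 491 to 612 in the ablated one, beside 3837 ablated and 11 control cells of a cluster led by Slpi.

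The levels were also read cell by cell. With so few UMIs per cell, counting alone leaves some cells with none, and its part in the shares below was not tested. The intervals of these shares treat the cells of 1 library as independent. When each cell was thinned to 2000 UMIs and shallower cells were left out, 1-day control cells held a mean of 0.662 UMIs of the 7 genes in the basal-like, 1.05 in the upper follicle-like, 1.22 in the bulge and outer root sheath-like, 2.27 in the spinous-like, 2.50 in the sebaceous-like and 3.41 in the granular-like class. The share of cells with none was 55.3% (53.8 to 56.7) of 4748 basal-like and 26.8% (25.6 to 28.1) of 5133 spinous-like cells, and 37.1% (32.6 to 41.7) of 456 sebaceous-like and 8.89% (4.68 to 15.01) of 135 granular-like cells, with exact (Clopper-Pearson) intervals. Without thinning, over all cells of these classes, the shares were 31.5%, 9.19%, 16.8% and 1.39%. The share in sebaceous-like cells ran against their summed level, so no order is read from it. Keratinocytes without a class, 2428 of them deep enough, held a mean of 0.503 UMIs, below that of basal-like cells. None of the 7 genes was found in 63.7% (61.8 to 65.6) of them. For comparison, 50.8% (38.1 to 63.4) of the 65 T cell-like control cells deep enough had none, and their summed level over all 725 cells was 328 CPM, near that of basal-like cells. The thinning left out 336 basal-like, 121 spinous-like, 1394 bulge and 660 T cell-like control cells as too shallow.

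**Figure D2:**
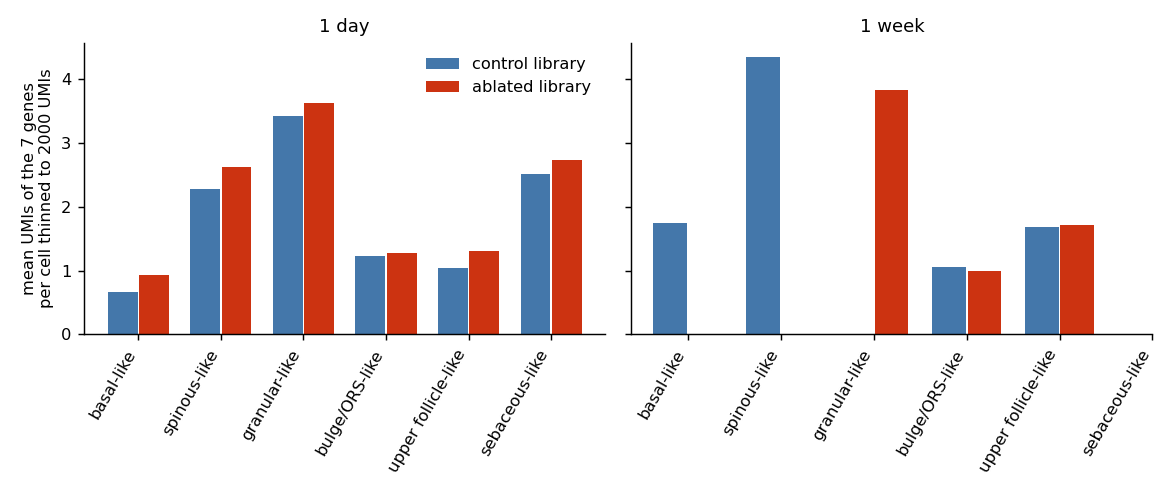
Mean number of UMIs of the 7 genes per cell after thinning every cell to 2000 UMIs (bars from 0), for control (blue) and ablated (red) libraries by keratinocyte class at 1 day and 1 week, with no bar where fewer than 50 cells were deep enough. At 1 day the granular-like bars are the tallest and the basal-like bars the shortest of each library, and at 1 week the bars shown for spinous-like control and granular-like ablated cells are the tallest.

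At 1 day after ablation, summed over 20443 control and 15799 ablated keratinocytes, 5 of the 7 genes were higher in the ablated library and Fdps and Lss stood close to the control. These sums leave out the Krt8-led cluster (1 control and 4235 ablated cells) and the unnamed clusters (750 and 2905 cells). They include the Slpi-led cluster (11 control and 3837 ablated cells) and a cluster led by Krt6b (16 and 2400), which have almost no control counterpart. With Krt8-led cells counted, the log2 ratio of Fdps was -0.05, that of Lss lay close to 0 and the other 5 genes stayed above 0. Intervals follow each log2 ratio. Hmgcs1, which makes HMG-CoA, was at 203 CPM in control cells and 303 CPM in ablated cells, a log2 ratio of 0.58 (0.55 to 0.61). Fdft1 was at 93.3 and 131 CPM, a log2 ratio of 0.49 (0.45 to 0.53). Sqle was at 106 and 155 CPM, a log2 ratio of 0.55 (0.51 to 0.59). The ratios of Hmgcs1, Fdft1 and Sqle thus lay close together, which did not hold for Fdps (0.07), the enzyme between Hmgcs1 and Fdft1.

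Cyp51 was at 122 CPM in control cells and 188 CPM in ablated cells, a log2 ratio of 0.63 (0.60 to 0.67). Insig1 was at 16.5 and 32.1 CPM, from 1782 and 2325 UMIs, a log2 ratio of 0.96 (0.87 to 1.05). Insig1 thus had the largest ratio of the 7. Fdps, at 293 and 307 CPM, had a log2 ratio of 0.07 (0.04 to 0.09), and Lss, at 10.4 and 11.1 CPM, one of 0.09 (-0.04 to 0.23), both of which turned to just below 0 (-0.03 and -0.01) when mitochondrial and ribosomal protein genes were left out of the totals. That scaling put the median of the 7 genes at 0.45 in place of 0.55. Cyp51 and Insig1 were at least 1.5-fold higher, 2 of 7, and none was 1.5-fold lower. With the scaling just named, Cyp51 was at 0.53 and only Insig1 stood past 1.5-fold. Under all alternatives of processing and of cells counted, Fdps ran from -0.63 to 0.51 and Lss from -1.01 to 1.01. Over all 13344 genes with at least 50 UMIs in the pair, 11.2% were at least 1.5-fold higher and 7.88% lower, with a median log2 ratio of -0.02. All these sums also hold the unequal makeup of the libraries given above, whose part was not tested. The values that follow are given by class and by cluster, and the cells of 1 class were not always alike in the 2 libraries.

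Within the basal-like class, 471 ablated against 5084 control cells, Hmgcs1 was at 96.5 and 151 CPM, a log2 ratio of 0.64 (0.44 to 0.84), and Sqle at 42.1 and 64.8 CPM, a ratio of 0.62 (0.31 to 0.92). Cyp51 had a log2 ratio of 0.45 (0.17 to 0.71) and Fdft1 of 0.35 (0.03 to 0.66) there. The Insig1 interval, 0.66 (-0.07 to 1.31), and the Fdps interval, -0.03 (-0.31 to 0.25), both held 0, and Lss rested on 61 and 2 UMIs. The summed basal markers of this class were 22806 CPM in control cells and 15861 CPM in ablated cells, and its granular markers 118 and 328 CPM.

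Fdps had the lowest ratio of the 7 genes in the spinous-like class. It was at 581 CPM in control cells and 376 CPM in ablated cells, a log2 ratio of -0.63 (-0.66 to -0.59), while Hmgcs1 had 0.36 (0.32 to 0.40), Cyp51 0.28 (0.23 to 0.33), Fdft1 0.23 (0.17 to 0.29), Sqle 0.18 (0.13 to 0.24) and Insig1 0.77 (0.63 to 0.90). Lss was also lower, at 14.3 and 12.5 CPM with overlapping intervals. Different clusters held most of this class in the 2 libraries. Within the cluster led by Mt4 and Krt1, Fdps was at 214 and 122 CPM, a log2 ratio of -0.81 (-1.01 to -0.61). Within the cluster led by Ivl it was at 1115 and 995 CPM, a ratio of -0.16 (-0.22 to -0.11), and in the Slpi-led cluster, nearly all of the ablated library, at 288 CPM. The lower Fdps of the ablated library was therefore also seen within both shared spinous-like clusters, though by unequal amounts, and subsets of cells within each library, given with the hashtags, overlapped in both. Hmgcs1 was higher within both, with ratios of 0.32 (0.15 to 0.47) and 0.41 (0.34 to 0.48).

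In granular-like cells, 144 control and 438 ablated, the ratio was 0.27 (0.12 to 0.43) for Hmgcs1 and 0.36 (0.11 to 0.62) for Fdft1. The other 5 genes had intervals that held 0, with Cyp51 at -0.03 (-0.21 to 0.16) and Fdps at -0.01 (-0.15 to 0.14). The hashtag subsets of at least 20 cells, 2 of control and 3 of ablated cells, are explained below. In them Fdps was separate and higher, at 426 to 534 against 544 to 770 CPM, unlike its ratio over all cells. Hmgcs1 and Fdft1 were separate and higher too, and the other genes overlapped. The share of all genes separate in this class was not computed, so with 2 against 3 subsets nothing about these genes is read from the separation. The cycling cluster, led by Ube2c and Top2a, had ratios of 0.88 (0.57 to 1.19) for Sqle, 0.50 (0.23 to 0.78) for Fdft1, 0.45 (0.27 to 0.62) for Hmgcs1 and 0.45 (0.23 to 0.67) for Cyp51. Insig1 had a ratio of 0.59 in that cluster, with an interval that just held 0, Fdps of 0.16 (-0.04 to 0.35), and Lss rested on 9 and 10 UMIs.

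Over the 13 keratinocyte clusters with at least 50 cells of both 1-day libraries, Hmgcs1, Fdft1, Cyp51 and Insig1 were each above 0 in 11. Of 6772 genes with as many UMIs as Lss or more, 13.1% were above 0 in at least 11 of 13. The whole counting interval lay above 0 in fewer clusters, 7 for Hmgcs1 and for Cyp51, 4 for Fdft1 and 3 for Insig1, where 7.99%, 20% and 28.8% of the same genes reached 7, 4 and 3. It lay above 0 in 5 clusters for Sqle, 2 for Fdps and 1 for Lss, counts that 14.2%, 43.2% and 65.6% of the genes reached. It lay below 0 in 2 clusters for Sqle and for Fdps (33.1% of genes in at least 2), in 1 for Hmgcs1, Fdft1 and Lss (57.7% in at least 1) and in none for Cyp51 and Insig1. By sign, Sqle was above 0 in 8, Lss in 7 and Fdps in 6, where 43.3%, 55.1% and 65.7% of the same genes reached those counts. The median ratio over clusters was 0.22 for Hmgcs1, 0.35 for Cyp51 and 0.42 for Insig1, against 0.58, 0.63 and 0.96 over all keratinocytes. For each of these 3 genes the median over clusters was thus smaller than the ratio of the sums. For Fdps the median over clusters was -0.01, and for Sqle it was 0.11, with the cluster values running from -0.39 to 1.44.

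**Figure D3:**
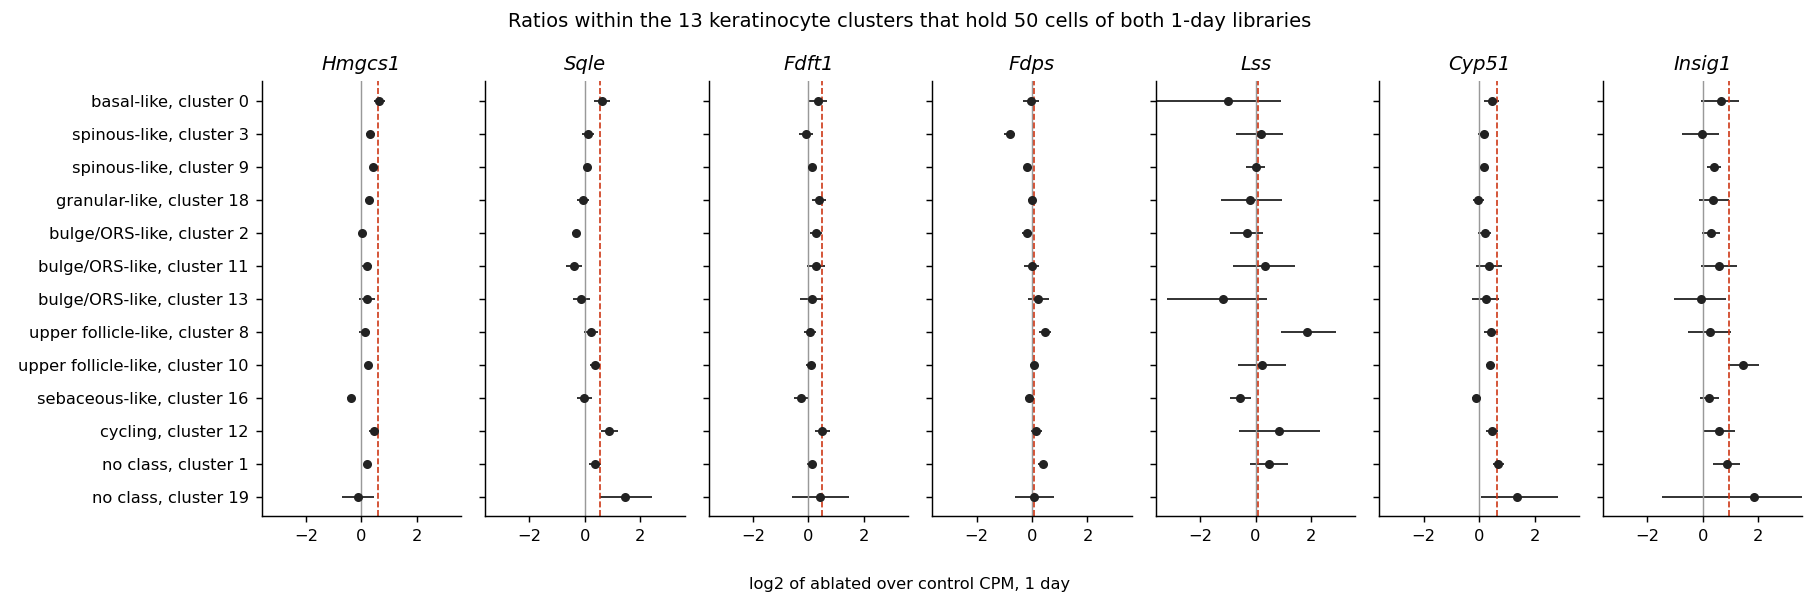
Log2 ratio of the ablated over the control library at 1 day (x axis) for each of the 7 genes, 1 point for each of the 13 keratinocyte clusters that hold at least 50 cells of both libraries (Lss in the cluster with no ablated UMI is not drawn), with exact 95% counting intervals and a dashed red line at the ratio over all keratinocytes. Points of Hmgcs1, Fdft1, Cyp51 and Insig1 lie right of 0 in 11 of 13 clusters, most of them left of the dashed line.

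The 1-day libraries also carry antibody tags, named as hashtags 1 to 4 in the files, of which 1 to 3 were filled. The labels do not say what the hashtags mark, so subsets of cells by hashtag describe spread among the assigned cells of a library and are not replicates. A cell was assigned when its leading hashtag, scaled by the most common count of each hashtag, was at least 2-fold the next. Assigned cells numbered 13590 of 22298 in the control library (60.9%) and 8856 of 23651 in the ablated (37.4%). All 3 subsets could lie to 1 side of the level over the whole class. Hmgcs1 in bulge and outer root sheath-like cells was at 147 to 202 CPM in control subsets, against 219 CPM over the class. In the ablated library it was at 156 to 196 against 227 CPM. In control spinous-like cells it was at 299 to 311 against 282 CPM. Over the keratinocytes of the 3 subsets, Hmgcs1 was at 195, 198 and 235 CPM in control cells and 272, 319.6 and 351 CPM in ablated cells. Cyp51 was at 112, 138 and 155 against 175, 194 and 236 CPM. Insig1 was at 10.6, 17.2 and 22.5 against 25.3, 28.2 and 39.3 CPM. For these 3 genes every subset of the ablated library lay above every subset of the control library.

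Sqle, at 93.4, 106 and 121 against 141, 143 and 194 CPM, and Fdft1, at 91.5, 102 and 104 against 129.7, 142 and 150.2 CPM, did not overlap either. Fdps overlapped, at 280.4, 323 and 397 against 282, 334 and 356 CPM, as did Lss, at 8.50, 10.0 and 14.7 against 11.0, 11.4 and 13.3 CPM. Thus 5 of the 7 genes were higher with no overlap, where 17.4% of the 13344 genes were. The sum of the 7 genes overlapped, at 814 to 1048 against 1039.7 to 1339 CPM. Within the 9 clusters that held 3 subsets of both libraries, little of this separation was seen. Hmgcs1 was separate and higher in 3 of them, Insig1 in 2, Sqle, Fdft1, Lss and Cyp51 in 1 each and Fdps in none. Of 6772 genes with as many UMIs as Lss or more, 10.7% were separate and higher in at least 3, 24.1% in at least 2 and 51.8% in at least 1. In the spinous-like class Fdps was lower with no overlap, at 565, 661 and 685 against 343, 373 and 446 CPM, where 21.5% of 10765 genes were lower and 19.9% higher with no overlap. Hmgcs1, Fdft1 and Cyp51 were higher there with no overlap. Different clusters make up this class in the 2 libraries, and within the shared clusters most of this separation was not seen. Fdps ranged over 143 to 306 against 131 to 202 CPM in the Mt4-led and 902 to 1293 against 926 to 1035 CPM in the Ivl-led cluster, and Fdft1 and Cyp51 also overlapped in both. Hmgcs1 was separate in the Mt4-led cluster (147 to 195 against 203 to 361 CPM), where 12.7% of genes were separate and higher, and overlapped in the Ivl-led cluster (431 to 487 against 451 to 672 CPM). In the basal-like class only Fdft1 of the 7 was separate, at 43.7, 44.0 and 55.8 against 55.8, 60.9 and 65.2 CPM, where 9.77% of genes were separate and higher. The basal-like levels of Hmgcs1, Sqle and Cyp51 thus overlapped between subsets of the 2 libraries, and Fdft1 was separate by a narrow margin. The sum of the 7 genes was separate and higher in this class, at 267 to 397 against 404 to 485 CPM. The ablated subsets of Hmgcs1, at 100 to 145 CPM, all lay below the 151 CPM of all ablated basal-like cells.

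**Figure D4:**
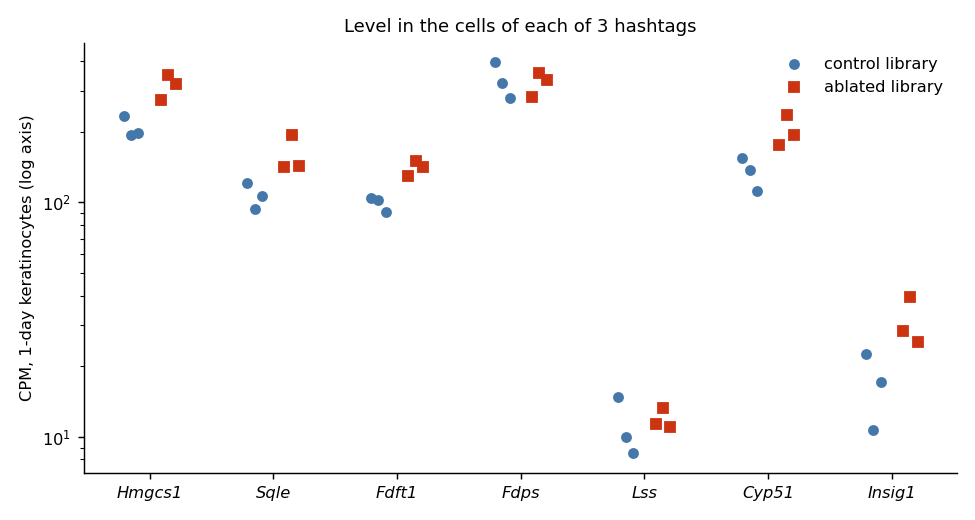
Level of each of the 7 genes (CPM, log axis) in 1-day keratinocytes carrying hashtag 1, 2 or 3, with the 3 control subsets as blue circles and the 3 ablated subsets as red squares. The red and blue points are separate for Hmgcs1, Sqle, Fdft1, Cyp51 and Insig1 and overlap for Fdps and Lss.

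Several 1-day clusters came almost wholly from the ablated library, and the 4 described here held 1 to 16 control cells, too few to compare. The Slpi-led spinous-like cluster of 3837 ablated cells held the 7 genes at a summed 1230.5 CPM, between the Mt4-led and Ivl-led clusters of the same library (679 and 2495 CPM). A cluster of 2400 ablated cells led by Krt6b and Sprr2d, a keratin and a cornified envelope gene of stressed epidermis, held them at 1737 CPM. A cluster of 4235 ablated cells led by Krt8 and Krt18, keratins of simple epithelia and Merkel cells, held them at 889 CPM. Insig1 was at 48.9 CPM in the Krt6b-led, 34.8 CPM in the Krt8-led and 35.8 CPM in the Slpi-led cluster, beside control levels of 21.5 CPM in the spinous-like class, 34.1 CPM in its Ivl-led cluster and 34.4 CPM in the granular-like class. Hmgcs1 was at 432, 250.5 and 331 CPM in the same 3 clusters. An unnamed cluster of 2820 ablated cells, led by mt-Nd6, Fa2h and Flg, held the 7 genes at 1267 CPM with Insig1 at 53.7 CPM. With 1 library per group, such a cluster cannot be told apart from a feature of that library.

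At 1 week, over 7574 control and 3653 ablated keratinocytes, Fdps was lower and the other 6 genes were higher in the ablated library, none by as much as 1.5-fold. Fdps was at 379 CPM in control cells and 266 CPM in ablated cells, a log2 ratio of -0.51 (-0.55 to -0.48). Insig1 was at 35.7 and 51.3 CPM, a ratio of 0.53 (0.43 to 0.62). Lss was at 17.4 and 23.6 CPM, a ratio of 0.44 (0.30 to 0.58). These 3 ratios lay farthest from 0 at this time, 1 below and 2 above. The sums also hold the unequal makeup of the 1-week libraries, whose part was not tested. Spinous-like cells, with Fdps at 927 CPM in the control library, numbered 916 in control and 4 in ablated keratinocytes. Sebaceous-like cells numbered 33 and 47. In them Insig1 was at 249 (control) and 507 CPM (ablated), and Lss at 331 and 291 CPM.

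Sqle was at 130.2 and 161 CPM, a log2 ratio of 0.31 (0.26 to 0.36). Hmgcs1 was at 471 and 519 CPM (log2 ratio 0.14, 0.11 to 0.17), Fdft1 at 177 and 199 CPM (log2 ratio 0.17, 0.13 to 0.22), and Cyp51 at 184 and 207 CPM (log2 ratio 0.17, 0.13 to 0.21). None of the 7 genes reached 1.5-fold in either direction, where 17.8% of 13186 genes were at least 1.5-fold higher and 10.6% lower, with a median of 0.08 over all genes. The ratios of Hmgcs1, Fdft1 and Cyp51 thus lay within 0.1 of that median.

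Few classes could be compared at 1 week, since the ablated library held 27 basal-like and 4 spinous-like cells. Granular-like cells of the ablated library, 1014 against 30 in the control, were lower in Fdps, at 626 and 334 CPM with a log2 ratio of -0.91 (-1.07 to -0.75). They were also lower in Fdft1 (log2 ratio -0.37, -0.58 to -0.15), Hmgcs1 (log2 ratio -0.33, -0.45 to -0.21) and Cyp51 (log2 ratio -0.24, -0.44 to -0.03). Over all 9116 genes of this class the median was 0.48, with 46.1% at least 1.5-fold higher and 14.2% lower, and of the 21 sterol synthesis genes 5 were higher and 8 lower. These granular-like cells were not alike in their markers: the 9 granular markers summed to 63424 CPM in control cells and 28448 CPM in ablated cells, and the 9 basal markers to 552 and 10069 CPM. Their part in these ratios was not tested. One granular-like cluster, of 636 ablated and 30 control cells, held the 7 genes at 2285 CPM in the ablated library, and another, of 378 ablated cells only, at 1149 CPM. Within a keratinocyte cluster without a class, led by Fst and Aldh3a1 with 1014 control and 848 ablated cells, Fdps was higher in the ablated library, at 79.9 and 135 CPM with a ratio of 0.76 (0.62 to 0.90). Sqle (log2 ratio 0.69, 0.48 to 0.91), Cyp51 (log2 ratio 0.58, 0.41 to 0.75) and Fdft1 (log2 ratio 0.37, 0.24 to 0.51) were higher in that cluster too. In each of the 3 clusters with at least 50 cells of both 1-week libraries, Fdps was above 0, with the interval above 0 in 1, and Hmgcs1 below 0, with the interval below 0 in 2. Of 5937 genes with as many UMIs as Lss or more, 29.1% were above 0 and 14.9% below 0 in all 3. The granular-like and sebaceous-like classes, which held fewer than 50 control cells, were lower in Fdps.

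In the hair follicle the largest 1-day ratios were those of Insig1 and Lss in upper follicle-like cells. In bulge and outer root sheath-like cells, 4046 control and 2374 ablated, Hmgcs1 was at 219 and 227 CPM (log2 ratio 0.06, -0.04 to 0.15), and Sqle was lower in the ablated library, at 147 and 118 CPM (log2 ratio -0.33, -0.45 to -0.20). Cyp51 had a ratio of 0.23 (0.04 to 0.41) and Insig1 of 0.32 (0.04 to 0.60). Fdft1 had 0.17 (0.01 to 0.33), Fdps -0.13 (-0.27 to 0.02) and Lss -0.29 (-0.79 to 0.19). The hashtag subsets of this class overlapped for Sqle, while Insig1 was lower in the ablated subsets with no overlap, at 17.6, 23.5 and 23.8 against 15.9, 16.8 and 17.3 CPM, where 6.25% of genes were, against its higher ratio over all cells of the class. Lss was also lower with no overlap, its subsets all but touching (4.79 to 10.5 against 4.33 to 4.79 CPM). Within the clusters of this class led by Krt24 and by Aspn, Insig1 overlapped (13.2 to 45.6 against 11.2 to 16.8 and 9.37 to 20.3 against 7.44 to 19.2 CPM), as did Lss. The remaining cluster, led by Sncg with 749 control and 332 ablated cells, had no ablated subset of at least 20 cells. Over the whole class ablated Insig1 was at 28.1 CPM, above each of its ablated subsets. The direction of Insig1 in these cells therefore depends on which cells are counted. At 1 week the same class had ratios of -0.42 (-0.55 to -0.29) for Hmgcs1, -0.53 (-0.83 to -0.22) for Insig1, 0.70 (0.48 to 0.93) for Fdft1 and 0.49 (0.26 to 0.72) for Sqle, with -0.02 (-0.28 to 0.23) for Cyp51, 0.16 (-0.05 to 0.36) for Fdps and -0.55 (-1.13 to 0.03) for Lss.

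Upper follicle-like cells, 2166 control and 2076 ablated at 1 day, were higher in Insig1 in the ablated library, at 6.95 and 14.5 CPM with a ratio of 1.06 (0.63 to 1.51). Lss was at 3.67 and 7.38 CPM, from 38 and 61 UMIs, a ratio of 1.01 (0.40 to 1.63). Cyp51 (log2 ratio 0.42, 0.29 to 0.56), Sqle (log2 ratio 0.33, 0.19 to 0.47), Hmgcs1 (log2 ratio 0.21, 0.11 to 0.32) and Fdps (log2 ratio 0.19, 0.08 to 0.30) were higher too, and Fdft1 had an interval that held 0 (log2 ratio 0.08, -0.05 to 0.21). Here 2 of 7 genes were at least 1.5-fold higher, where 6.31% of 9474 genes were. In the hashtag subsets, Insig1 was at 5.14, 5.49 and 7.66 against 12.7, 13.1 and 15 CPM and Sqle at 71.0, 80.1 and 88.8 against 90, 90.7 and 109 CPM, both with no overlap, as was Lss, where 10.2% of genes were. Sqle overlapped in both clusters of this class (40.7 to 62.6 against 38.4 to 67.3 and 104 to 122 against 121 to 171 CPM), and each of Insig1 and Lss was separate in only 1 of the 2. In the cluster led by Cst6 and Defb6, Insig1 overlapped (4.07 to 6.53 against 2.99 to 8.99 CPM) and Lss did not (0.814 to 3.29 against 8.30 to 11.2 CPM), where 10.8% of genes were separate and higher. In the cluster led by 2310046K23Rik and Krt79, Insig1 did not overlap (4.47 to 9.10 against 18.8 to 27.0 CPM), where 6.63% of genes were separate and higher, and Lss did (3.51 to 7 against 1.42 to 7.83 CPM). The granular markers of this class summed to 1426 and 3146 CPM, and their part was not tested. At 1 week, with 425 and 451 cells, Hmgcs1 was lower in the ablated library (log2 ratio -0.23, -0.34 to -0.11), as was Fdft1 (log2 ratio -0.24, -0.40 to -0.09), and Insig1 had an interval that held 0 (log2 ratio -0.13, -0.62 to 0.36). There Sqle had a ratio of 0.00 (-0.21 to 0.21), Cyp51 of 0.07 (-0.11 to 0.26), Fdps of 0.07 (-0.11 to 0.24) and Lss of 0.60 (-0.20 to 1.45).

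In sebaceous-like cells the summed levels of Hmgcs1, Lss and Fdft1 were lower in the ablated library at 1 day. In 470 control and 249 ablated cells at 1 day, Hmgcs1 was at 565 and 439.5 CPM, a log2 ratio of -0.36 (-0.50 to -0.22), and Lss at 88.9 and 60.9 CPM, a ratio of -0.54 (-0.93 to -0.17). Fdft1 had a ratio of -0.27 (-0.52 to -0.02), and the intervals of Fdps, Sqle, Cyp51 and Insig1 held 0. In 33 control and 47 ablated cells at 1 week, Fdft1 (log2 ratio -0.60, -0.81 to -0.38), Fdps (log2 ratio -0.44, -0.59 to -0.29) and Hmgcs1 (log2 ratio -0.30, -0.43 to -0.16) were lower in the ablated library, while Insig1 was higher, at 249 and 507 CPM with a ratio of 1.02 (0.72 to 1.34). The 1-day hashtag subsets of at least 20 cells, 3 of control and 2 of ablated cells, overlapped for Hmgcs1 (468 to 673 against 346 to 508 CPM), Fdft1 (143 to 228 against 146 to 191 CPM) and Lss (69.8 to 114 against 64.1 to 80.3 CPM). The 7 sebaceous markers summed to 3165 and 3668 CPM at 1 day, and at 1 week to 10689.7 and 11628 CPM, control and ablated. After thinning to 2000 UMIs, which counts each cell equally, the 1-day mean was 2.50 UMIs in control and 2.73 UMIs in ablated cells, the opposite order to the summed level of 1874 and 1639 CPM. Thinning also left out cells of under 2000 UMIs, 14 of 470 control and 30 of 249 ablated. Which of these changes turned the order was not tested.

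The other genes of the pathway were read from a list of 21 sterol synthesis genes that includes the 6 enzymes described here. At 1 day 6 of the 21 were at least 1.5-fold higher in ablated keratinocytes and none was lower, with 20 above 0 and a median log2 ratio of 0.38, against 11.2% higher and a median of -0.02 over all genes. Hsd17b7, a reductase of late sterol intermediates, was at 38.02 and 90.9 CPM (log2 ratio 1.26, 1.20 to 1.31). Dhcr7, which makes cholesterol from its last precursor, was at 16.8 and 36.2 CPM (log2 ratio 1.11, 1.02 to 1.19), and Sc5d, the desaturase before it, at 64.6 and 135 CPM (log2 ratio 1.07, 1.02 to 1.11). Idi1, the isomerase before Fdps, was at 113 and 199 CPM (log2 ratio 0.82, 0.79 to 0.86). These 4 enzymes thus had larger ratios than any of the 6 described here. As the mean over shared clusters, 1 gene of the list reached 1.5-fold, and by the mean CPM per cell 11 did. No share of all genes is given beside these counts, so they are not read as a result about the list. The lowest were Mvk, mevalonate kinase (log2 ratio -0.13, -0.22 to -0.04), Tm7sf2 (log2 ratio 0.03, -0.20 to 0.26) and Mvd (log2 ratio 0.05, -0.08 to 0.17).

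At 1 week 5 of the 21 were at least 1.5-fold higher and none lower, with a median of 0.20, where 17.8% of all genes were higher with a median of 0.08. Ebp, a sterol isomerase, was at 56.2 and 123 CPM (log2 ratio 1.13, 1.06 to 1.20), and Dhcr7 at 24.1 and 47.4 CPM (log2 ratio 0.97, 0.87 to 1.08). The lowest 3 were Fdps, Pmvk (log2 ratio -0.24, -0.31 to -0.18) and Sc5d (log2 ratio 0.03, -0.04 to 0.09). The list was also read by class at 1 day. In upper follicle-like cells 9 of 20 genes with enough UMIs were at least 1.5-fold higher and none lower (all genes 6.31% and 3.1%). In bulge and outer root sheath-like cells 1 of 20 was higher and none lower (5.51% and 2.54%). In basal-like cells 3 of 20 were higher and 2 lower (10.4% and 9.34%). In spinous-like cells 4 of 21 were higher and 3 lower (13.6% and 11.9%), but none was higher in either shared spinous-like cluster, with 7 lower in the Mt4-led (15.8% and 10.6% of all genes) and 2 lower in the Ivl-led cluster (8.08% and 8.12%). In sebaceous-like cells 1 of 20 was higher, none lower and 14 below 0 (7.43% and 5.28%). In granular-like cells 4 of 18 were higher and 1 lower, with 9 above and 9 below 0 (8.8% and 13.1%). In the cycling cluster 5 of 16 were higher and none lower (11.3% and 8.35%).

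**Figure D5:**
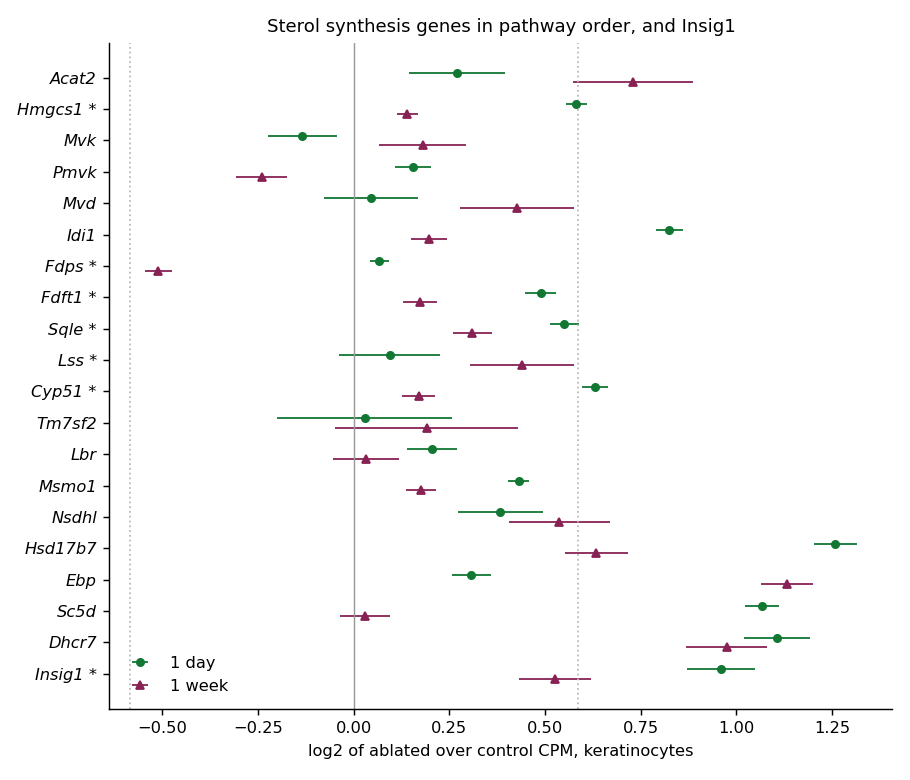
Log2 ratio of the ablated over the control library in keratinocytes (x axis) at 1 day (green circles) and 1 week (purple triangles) for 19 of the 21 genes of the sterol synthesis list in pathway order and Insig1, with exact 95% counting intervals, asterisks on the 7 genes described here and dotted lines at 1.5-fold. At 1 day every gene shown but Mvk lies right of 0, led by Hsd17b7 at 1.26, and at 1 week Fdps is lowest at -0.51.

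Among 9 genes of SREBP control, which include Insig1, 1 was at least 1.5-fold higher at 1 day, Insig1 itself, and none at 1 week, where 11.2% and 17.8% of all genes were. Srebf2, which encodes SREBP2, was at 96.0 and 141 CPM at 1 day (log2 ratio 0.56, 0.52 to 0.60) and at 147 and 179 CPM at 1 week (log2 ratio 0.29, 0.24 to 0.34). Scap, the escort of SREBP, was lower at 1 day (log2 ratio -0.34, -0.41 to -0.27), as were the proteases Mbtps1 (log2 ratio -0.19, -0.30 to -0.09) and Mbtps2 (log2 ratio -0.13, -0.25 to -0.01). Insig2, the relative of Insig1, was at 83.1 and 84.7 CPM at 1 day (log2 ratio 0.03, -0.02 to 0.07) and at 77.7 and 112 CPM at 1 week (log2 ratio 0.53, 0.47 to 0.59), so only Insig1 of the pair had an interval above 0 at 1 day and both did at 1 week. The difference between them was not tested.

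Of 7 genes of sterol uptake and traffic, 6 had enough UMIs, of which none was 1.5-fold higher or lower at 1 day and, at 1 week, 1 was higher and 1 lower. Over all genes 11.2% were higher and 7.88% lower at 1 day, and 17.8% and 10.6% at 1 week. Stard4, a sterol carrier, had 0.52 (0.46 to 0.57) at 1 day and -0.37 (-0.46 to -0.29) at 1 week. Mylip, a ubiquitin ligase, was lower at both times (log2 ratio -0.51, -0.69 to -0.34 at 1 day and log2 ratio -0.66, -0.83 to -0.49 at 1 week). Scarb1, a lipoprotein receptor, was at 1.81 and 5.88 CPM at 1 week (log2 ratio 1.70, 1.34 to 2.06).

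Of 8 genes of sterol efflux and storage, 1 was 1.5-fold higher and 1 lower at 1 day (all genes 11.2% and 7.88%), and 2 were higher and none lower at 1 week (all genes 17.8% and 10.6%). Sult2b1, the cholesterol sulfotransferase of differentiating keratinocytes, was at 147 and 489 CPM at 1 day (log2 ratio 1.74, 1.71 to 1.76) and at 119 and 310.0 CPM at 1 week (log2 ratio 1.38, 1.34 to 1.43). Apoe was at 6418 and 3018 CPM at 1 day (log2 ratio -1.09, -1.10 to -1.08), and Soat1, which esterifies cholesterol, at 14.2 and 49.9 CPM at 1 week (log2 ratio 1.81, 1.68 to 1.93). Both the granular and the sebaceous marker sums differ between the 1-week libraries (153 and 441 CPM for the sebaceous markers), and their part was not tested.

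Genes of fatty acid synthesis and of the non-sterol branch were read beside them. Of 10 fatty acid synthesis genes with enough UMIs, 2 were at least 1.5-fold higher at 1 day and 6 at 1 week, with medians of 0.31 and 0.72, where 11.2% and 17.8% of all genes were. Scd2, a fatty acid desaturase, was at 24.0 and 55.0 CPM at 1 day (log2 ratio 1.20, 1.12 to 1.27) and at 35.6 and 73.3 CPM at 1 week (log2 ratio 1.04, 0.96 to 1.13), and Elovl6, an elongase, had 0.21 (0.17 to 0.25) and 1.06 (1.01 to 1.12). Of 7 genes that use farnesyl diphosphate for other products, none was 1.5-fold higher or lower at 1 day (median -0.08), where 11.2% of all genes were higher and 7.88% lower. At 1 week 2 of 7 were higher and none lower (median 0.25, all genes 17.8% and 10.6%). These were Pdss1, of coenzyme Q synthesis (log2 ratio 1.35, 1.15 to 1.56), and Fntb, the beta subunit of farnesyltransferase (log2 ratio 0.84, 0.65 to 1.03). Ggps1, which extends farnesyl diphosphate, had -0.13 (-0.22 to -0.05) at 1 day and -0.16 (-0.28 to -0.03) at 1 week. A list of 10 genes known to respond to tissue dissociation was included as a check of handling, and 4 of 10 were at least 1.5-fold higher at 1 day (median 0.46) and 3 at 1 week (0.38), with Fos at 308 and 588 CPM at 1 day (log2 ratio 0.93, 0.91 to 0.95). Over all genes 11.2% were higher at 1 day and 17.8% at 1 week. In spinous-like cells and in the cycling cluster 6 of the 10 were higher at 1 day, with medians of 0.93 and 0.93, where 13.6% and 11.3% of all genes were. Their part in the ratios of the 7 genes was not tested.

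Across 34 sums of at least 50 cells, each a class in a library, the levels of the 7 genes were set beside each other. The sums include T cell-like, Langerhans and myeloid-like, fibroblast-like and pericyte and smooth muscle-like classes beside keratinocytes. The correlation of log2(CPM + 10) of each gene with the mean of the other 6 was 0.93 for Hmgcs1, 0.89 for Fdps, 0.88 for Cyp51, 0.79 for Sqle, 0.76 for Fdft1, 0.62 for Lss and 0.15 for Insig1. These are descriptions over sums that share libraries, kits and depth. Among 6049 other genes with a mean of at least 20 CPM, the 10 most like the 7 included Idi1 (0.92) and Msmo1 (0.85), both sterol synthesis genes. Ldah (0.83), Acly (0.82), Nudt17 (0.80), Acer1 (0.79), Elovl4 (0.78), Hsd17b7 (0.78) and Adtrp (0.77) were also among them. The same 10 genes came out with the mean of each time point removed, with Idi1 at 0.93. Insig1 was thus the least like the other 6 over these sums, keratinocytes and other cells together. Among the named keratinocyte classes alone, Insig1 ranked highest in sebaceous-like and next in granular-like cells in all 4 libraries. The granular-like interval overlapped that of the class ranked after it in each library but the 1-week ablated one.

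Cells that are not keratinocytes also held the 7 genes in the 1-day libraries. T cell-like cells were at a summed 328 CPM in 725 control and 743 CPM in 253 ablated cells, and Langerhans and myeloid-like cells at 385 and 572 CPM in 379 and 459 cells. Hmgcs1 in T cell-like cells was at 105 and 219 CPM. In the same T cell-like cells the 12 keratinocyte markers summed to 4746 CPM in control cells and 17550.5 CPM in ablated cells, and the 7 T cell markers to 10864 and 3095 CPM. In Langerhans and myeloid-like cells the keratinocyte markers stood at 3740.5 and 3386 CPM. The part of keratinocyte RNA in these levels was not tested. In keratinocytes at 1 day the T cell markers summed to 7.80 and 13.4 CPM.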

How the data were processed

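The deposited files hold UMI counts (whole numbers) of each gene in each barcode, made by the authors with Cell Ranger 5.0.1 (mm10 and Seurat also named, with no step given), per the file headers and the submitters' processing notes. Each library was 1 sample. The filter kept barcodes of at least 500 UMIs and 300 genes with no more than 15% of UMIs mitochondrial. Scrublet, whose own threshold would have marked 0.00546% to 99.7% of barcodes, was instead used by rank at 0.8% per 1000 barcodes, which removed 14.7% to 26.8% and left 22298, 23651, 19879 and 15626 cells (1-day control, 1-day ablated, 1-week control, 1-week ablated). Clusters came from scanpy 1.11.5 and leidenalg 0.10.2 (2000 variable genes without the listed genes, 30 components, 15 neighbours, resolution 1), separately by time. Names came from marker lists, with score limits set after seeing the data. Keratinocyte clusters needed 7 of 12 keratinocyte markers at 2-fold the median level in clusters of other cell types, or 2 markers of their own class among their 10 leading genes, and stayed unnamed without them, with under 50 cells, when led by Crabp1, Iglv2, mt-Nd6 or Gm26917, or, at 1 week, with a median under 3000 UMIs (1500 where markers of another cell type led). UMIs were summed per class and library as CPM, with exact Poisson intervals for levels and exact conditional 95% intervals for log2 ratios (Python 3.11.15, scipy 1.17.1), which were tested on simulated data. Ratios needed 50 UMIs over the pair and called counts 1.5-fold. Alternatives changed scaling (edgeR 4.0.16 TMM, R 4.3.3), cell weights, filters, cells counted, resolution, limits and fold.

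All 7 genes were named over all keratinocytes at each time. Other named genes came from the 3 highest and 3 lowest ratios of each list per time and the 10 genes most correlated with the 7. Some genes named by this rule are not reported here. At 1 day Idi1, Elovl6 and Insig2 were named outside that rule after their values were seen. Promoters with a sterol regulatory element were shown by rule. The members and lists were chosen with earlier results of these data known.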

Additional observations from a re-analysis of the deposited data

Results flagged for a closer look

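The 1-day files carry 4 antibody hashtag features beside the genes, a signal outside the gene measurement. Their meaning is not given in the labels, and their totals lie above the 3 counts that a count of 0 allows. In the control library the total counts were 4754603 for hashtag 1, 5942938 for hashtag 2, 5686907 for hashtag 3 and 2256 for hashtag 4. In the ablated library they were 3097281, 6137708, 3056647 and 1425 in the same order. Hashtags 1 to 3 were used above only to describe the spread among the assigned cells of a library.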

How the results depend on the processing

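The median log2 ratio of the 7 genes in keratinocytes at 1 day, 0.55, depended most on which cells were counted. It was 0.45 in the basal-like, 0.23 in the spinous-like, -0.0067 in the granular-like, 0.055 in the bulge and outer root sheath-like, 0.33 in the upper follicle-like and -0.12 in the sebaceous-like class alone, so it lay below 0 in sebaceous-like cells, while the granular-like median lay below 0 only with Lss counted, which has under 50 UMIs there (0.13 over the other 6). Cyp51 turned below 0 in granular-like and sebaceous-like cells, at -0.027 and -0.10. In sebaceous-like cells Hmgcs1 (-0.36), Fdft1 (-0.27) and Sqle (-0.020) also did, and Sqle did in bulge and outer root sheath-like (-0.33) and granular-like cells (-0.062). Over all cells the 1-day median was 0.51, with Krt8-led clusters counted 0.48, at clustering resolution 2 0.60, with barcodes of at least 3000 UMIs 0.60, by the mean CPM per cell 0.64 and with totals that left out mitochondrial and ribosomal protein genes 0.45. Averaged over shared clusters, an alternative chosen after seeing the data, it was 0.20. The number of sterol synthesis genes past 1.5-fold at 1 day, 6, was 11 by the mean CPM per cell, 1 in the bulge and outer root sheath-like class, 1 in the sebaceous-like class, 1 over shared clusters and 3 at a limit of 2-fold. For the mean CPM per cell, the shared clusters and the 2-fold limit, no share of all genes is given to set these counts against.

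At 1 week the median, 0.17, was 0.089 with TMM scaling, 0.081 with mitochondrial and ribosomal protein genes left out, 0.24 over all cells with doublets added back, and 0.23 and 0.12 at resolutions 0.5 and 2. It was 0.27 in the basal-like, -0.24 in the granular-like, -0.025 in the bulge and outer root sheath-like, 0.0024 in the upper follicle-like and -0.19 in the sebaceous-like class, and 0.24 with low-UMI clusters counted, also chosen after seeing the data. The number past 1.5-fold, 5, was 13 in the granular-like class (5 higher and 8 lower) and 2 at 2-fold, with no share of all genes given at 2-fold. The log2 level of the 7 genes in 1-day control spinous-like over basal-like cells, 2.07, was 1.72 by the mean CPM per cell and 2.10 with barcodes of at least 3000 UMIs. Sebaceous-like over basal-like, 2.49, was 1.99 and 2.58. At 1 week the mean CPM per cell gave 1.31 in place of 1.54 for spinous-like and 2.52 in place of 2.67 for sebaceous-like cells. The causes were not tested.

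At 1 day Insig1 was above 0 under all 20 alternatives (0.24 to 1.14), Hmgcs1 and Fdft1 under 19 of 20, Cyp51 under 18 and Sqle under 17. Lss was above 0 under 13 of 19 (-1.01 to 1.01) and Fdps under 11 of 20 (-0.63 to 0.51). At 1 week Sqle kept its sign under 18 of 19 alternatives, Hmgcs1 under 13 and each of the other 5 genes under 15. No paired analysis was possible because each group was 1 library, and leaving out a replicate was not possible for the same reason. Lss, at 2.63 CPM in basal-like control cells, is limited by depth, and the 1-week classes of under 50 cells by their number of cells.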
